A study of Mus musculus with 30 samples.

Results

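The chaperone genes described here are those of the Hsp70, Hsp90, DnaJ and TRiC families that the array annotation named: every probe whose gene symbol starts with Dnaj, Hspa or Hsp90, or is Hspd1, Hspe1, Hsph1, Tcp1 or Cct2 to Cct8, with 1 probe per gene. This rule found 39 genes among the 6028 genes that the annotation names, and each of the 39 had a single named probe. They are 6 subunits of TRiC (Tcp1, Cct3, Cct4, Cct5, Cct6a and Cct8), 2 Hsp90 genes (Hsp90aa1 and Hsp90b1), 6 Hsp70 and Hsp110 genes (Hspa2, Hspa4, Hspa8, Hspa9, Hspa12b and Hsph1), the mitochondrial chaperonin pair Hspd1 and Hspe1, 8 J proteins of classes A and B (Dnaja2, Dnaja3, Dnajb1, Dnajb2, Dnajb4, Dnajb6, Dnajb9 and Dnajb12) and 15 of class C (Dnajc2, Dnajc4, Dnajc5, Dnajc7, Dnajc10, Dnajc11, Dnajc12, Dnajc15, Dnajc16, Dnajc18, Dnajc19, Dnajc24, Dnajc25, Dnajc28 and Dnajc30). Total RNA of the cardiac ventricle was hybridised to 30 one-colour Illumina bead arrays, with 3 biological replicates in each of 10 groups. Sox6 KO mice (Sox6loxp/loxp; MCK-Cre) were set against control mice (MCK-Cre) at postnatal days 1, 7, 14, 30 and 60 (P1, P7, P14, P30 and P60), all of an FVB/B6 hybrid background and, per the methods, all male. Both genotypes carried MCK-Cre, in which the muscle creatine kinase promoter drives the Cre recombinase in heart and skeletal muscle, so that a skeletal muscle deletion accompanies the cardiac one and no group is free of Cre. No probe was named Sox6, so the deletion itself could not be read from the arrays.

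Molecular chaperones hold unfolded proteins and help them reach their native shape. Hsp70 binds exposed hydrophobic stretches in a cycle of ATP binding and hydrolysis. J proteins bring substrates to Hsp70 and start the hydrolysis, while Hsp110 proteins and other exchange factors reset it. Hsp90 takes over partly folded clients such as kinases and steroid receptors. TRiC is a ring-shaped chaperonin of the cytosol that folds actin and tubulin, and Hspd1 with Hspe1 forms the equivalent cage of the mitochondrial matrix. Many of these genes are driven by the heat shock factor HSF1, and those of the endoplasmic reticulum (ER) by the unfolded protein response. In heart muscle the system serves the sarcomere, whose proteins are long-lived and under mechanical load, and the import of proteins into abundant mitochondria. After birth, ventricular cardiomyocytes leave the cell cycle, enlarge and expand their mitochondria.

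Values are log2 of the quantile-normalised intensity of a probe, and adjusted p values are from limma over 17997 detected probes. The word called is used of a gene or probe whose adjusted p lay below 0.05. All 39 genes passed the filter on low values, 38 of them above the negative controls on all 30 arrays and Cct5 on 29. Between 13997 and 17954 probes were detected per array, the median intensity of an array lay between 96.1 and 126.7, and arrays of 1 group correlated at 0.983 to 0.996 over the tested probes. The SD of 3 arrays over the 39 genes and 10 groups had a median of 0.11 and ran from 0.01 to 0.70 on the log2 scale. Of the cardiomyocyte markers, 6 of 7 were measured, with a summed intensity of 93380.4 to 136579 on KO arrays and 102674 to 137815 on control arrays, whereas none of 5 skeletal muscle, 3 adipocyte or 6 cell division markers had a named probe. In whole ventricle, a lower signal from fewer cells of a type cannot be told apart from less RNA per cell.

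Promoter sequences from RefSeq (GRCm38.p6) were at hand for 29 of the 39 genes, each covering 250 bases before and 50 bases after a gene's start. The HSF1 binding motif in its longer form, GAANNTTCNNGAA on either strand, stood in 198 of 32851 mouse promoters (0.603%), among them those of Dnajb6, Hspd1, Hspe1 and Hsph1. Its shorter forms, GAANNTTC or TTCNNGAA, both of which every longer match holds, stood in 15.1% of promoters and in at least 1 promoter of 8 of the 29 genes. Some genes have more than 1 promoter, so a share of genes is not the same measure as a share of promoters. The ER stress element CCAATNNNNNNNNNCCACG, again on either strand, was found in 39 promoters (0.119%), of which that of Hsp90b1 was the only one among the 29 genes. No promoter was at hand for Cct4, Dnajc2, Dnajc5, Dnajc11, Dnajc12, Dnajc18, Dnajc30, Hsp90aa1, Hspa8 and Hspa9. Whether these genes carry the motifs was thus not read. A match in letters is a description and not evidence of binding. The promoters of Hsph1, Hspe1 and Hsp90b1 are shown because these genes carry the motifs and recur in the results: Hsph1 with the widest rise after birth outside the J proteins, Hspe1 and Hsp90b1 with differences between genotypes. Capitals mark the matches to the longer HSF1 motif and to the ER stress element, and a further match to the shorter form in Hsph1, starting 33 bases before the gene's start, is left in lower case. The promoter of Hspd1, on the opposite strand, shares 285 bases with that of Hspe1.
Hsph1, chr5:149636287-149636586, minus strand: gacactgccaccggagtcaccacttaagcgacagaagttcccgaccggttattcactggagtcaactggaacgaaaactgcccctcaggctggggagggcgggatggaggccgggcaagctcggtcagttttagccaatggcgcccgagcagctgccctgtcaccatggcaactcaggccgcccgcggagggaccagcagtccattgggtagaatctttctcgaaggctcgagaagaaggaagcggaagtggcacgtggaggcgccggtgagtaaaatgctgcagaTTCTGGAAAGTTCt
Hspe1, chr1:55087898-55088197, plus strand: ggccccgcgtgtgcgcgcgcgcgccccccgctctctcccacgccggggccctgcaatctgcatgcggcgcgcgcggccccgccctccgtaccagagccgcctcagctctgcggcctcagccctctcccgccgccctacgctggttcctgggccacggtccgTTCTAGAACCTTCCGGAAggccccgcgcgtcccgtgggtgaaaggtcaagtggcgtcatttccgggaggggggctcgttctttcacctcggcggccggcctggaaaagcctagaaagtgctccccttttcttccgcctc
Hsp90b1, chr10:86705395-86705694, minus strand: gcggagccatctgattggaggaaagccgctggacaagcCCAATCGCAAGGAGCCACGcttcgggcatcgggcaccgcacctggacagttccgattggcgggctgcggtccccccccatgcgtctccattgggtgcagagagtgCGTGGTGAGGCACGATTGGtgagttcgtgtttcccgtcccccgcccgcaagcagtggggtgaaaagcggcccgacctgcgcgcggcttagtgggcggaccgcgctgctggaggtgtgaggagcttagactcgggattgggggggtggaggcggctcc
In Hspe1, 2 overlapping matches start 89 and 84 bases before the gene's start, and in Hsp90b1 the ER stress element occurs 212 and 107 bases before it. The match of Hsph1 lies within the 50 bases that follow its start.

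Chaperone genes moved in both directions with age, with rises more numerous than falls by quantile normalisation. In KO ventricles 17 of 39 genes were higher and 9 lower at P60 than at P1, against 29.9% of all tested probes higher and 28.6% lower, or 37.7% and 30.1% of the probes with a gene name. In control ventricles 20 were higher and 8 lower, against 27.6% and 27.2% of all probes, or 34.4% and 30.6% of the probes with a gene name. The share of the 39 genes called was thus close to that of all named probes in KO. The median change of the 39 genes from P1 to P60 was 0.16 on the log2 scale in KO and 0.25 in control, beside 0.01 and -0.01 over all tested probes. At the stricter limit of adjusted p under 0.01 and at least 1.5-fold, 8 rose and 4 fell in KO ventricles, and 10 rose and 2 fell in control ventricles, where 22.4% of all tested probes passed in KO and 20.7% in control. Of the 39 genes, 14 rose in both genotypes, 8 fell in both, 6 rose in control alone, 3 rose and 1 fell in KO alone, and 7 were called in neither. Genes called in 1 genotype alone are not thereby shown to differ between genotypes. The split between rises and falls depends on the scaling. With arrays scaled to a common median instead, the median of all probes moved to 0.14 in KO and 0.15 in control, 12 genes rose and 12 fell in KO, and 15 rose and 12 fell in control. By that scaling 14 of 39 genes in KO, and 18 of 39 in control, lay above the median of all probes, against 24 and 27 with quantile normalisation. Other marker lists changed with age as well, and their part in these changes was not tested. The summed intensity of 4 endothelial markers was 1627 to 1989 at P60 and 2692 to 3046 at P1 in KO, and 1710.5 to 1956 at P60 and 3286 to 3358 at P1 in control, with all 4 lower in both genotypes, while all 3 macrophage markers were higher in both. The atrial markers Myl4 and Nppa were both lower at P60, with a median change of -5.14 in KO and -3.89 in control, and the 1 smooth muscle marker measured was lower by -2.46 and -2.50. The paper counts Nppa among fetal type genes of the heart, so this list need not reflect atrial tissue alone at any age. Of 6 clock output genes, whose level depends on the time of day, 4 were higher and 2 lower in KO, with a sum of 4425 to 5963 at P60 and 2520 to 3185 at P1, and 5 were higher in control, with 6499 to 7112 at P60 and 2256 to 2809 at P1.

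**Figure D1:**
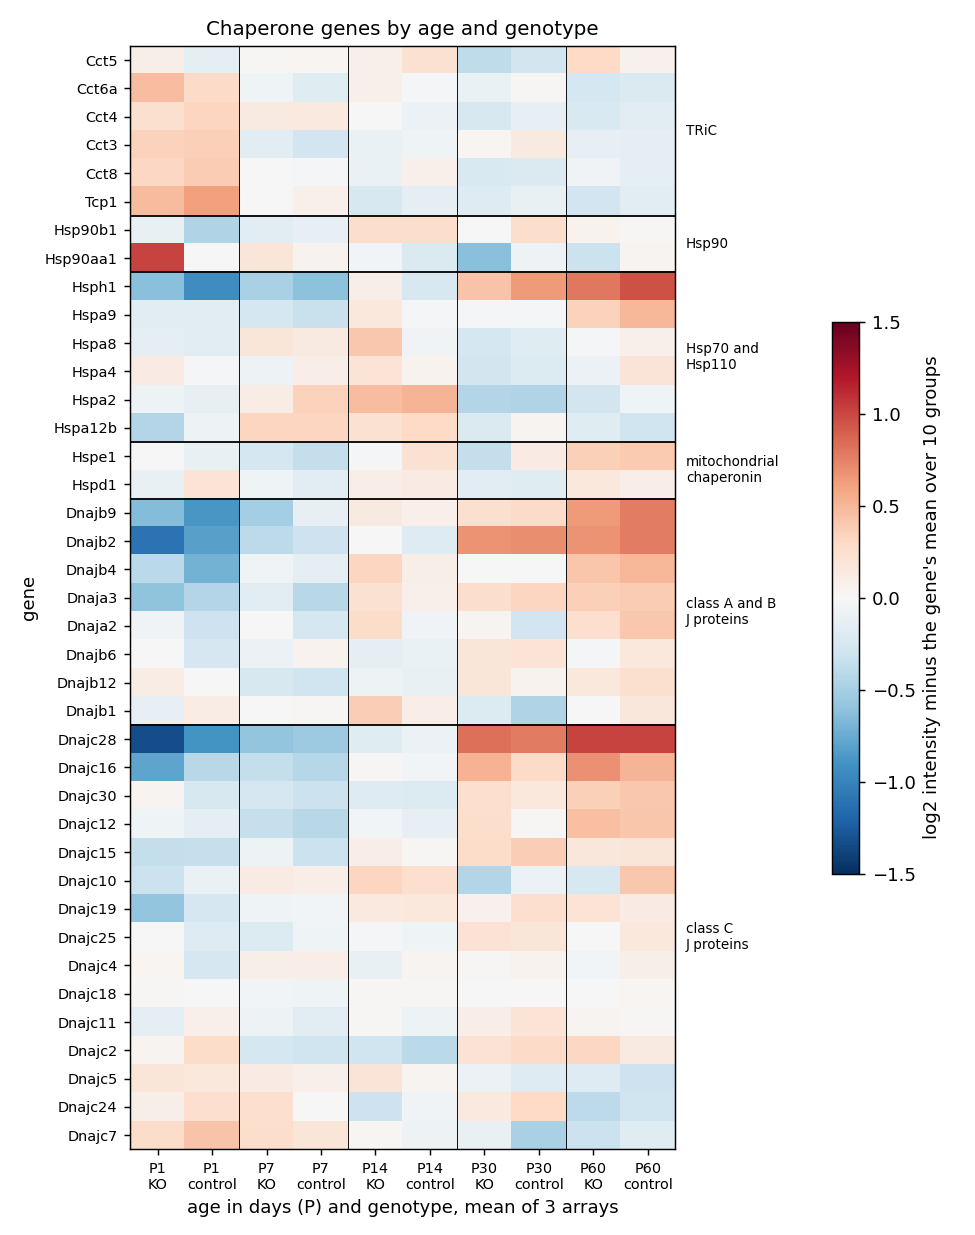
Mean log2 intensity of each of the 39 chaperone genes (rows, grouped by family) in the 10 groups (columns, 3 arrays each, Sox6 KO left of control at each age), minus the mean of that gene over the 10 groups. TRiC genes other than Cct5 are high at P1, Dnajb2, Dnajb9, Dnajc28 and Hsph1 climb to P60 in both genotypes, and Hsp90aa1 stands out in KO at P1.

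**Figure D2:**
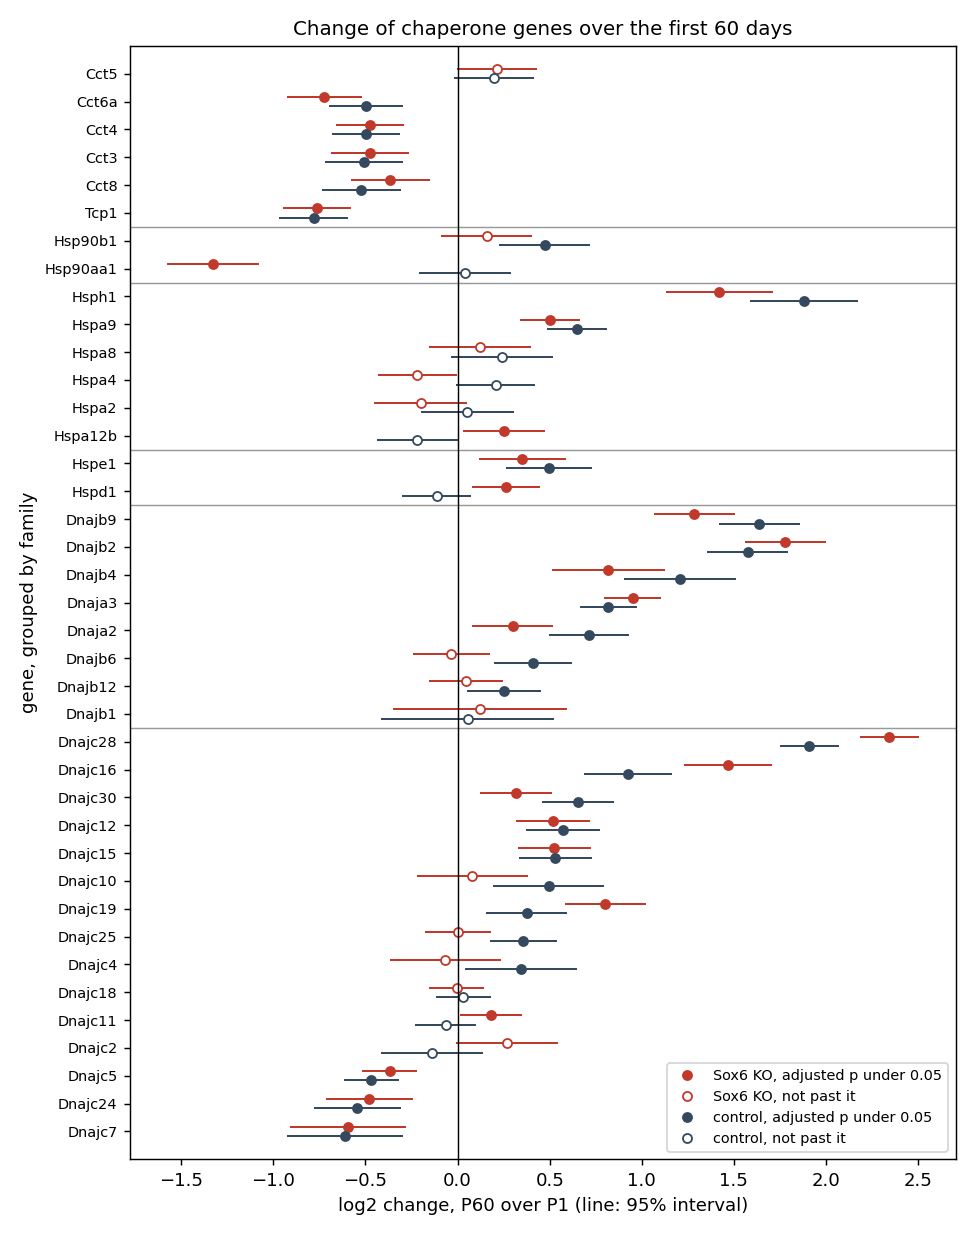
Log2 change from P1 to P60 for each of the 39 genes in Sox6 KO (red, upper) and control (dark, lower) ventricles, with the 95% interval of the limma fit. Filled points passed an adjusted p of 0.05. Of the 6 TRiC genes, 5 lie left of 0 in both genotypes, and Dnajc28 lies farthest right in both.

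Of the 6 TRiC genes, 5 were highest at birth in both genotypes and were lower at P60 than at P1. Tcp1, which encodes the alpha subunit, read 10.96, 10.93 and 10.87 at P60 and 11.71, 11.69 and 11.65 at P1 in KO ventricles, and 11.20, 11.01 and 10.94 at P60 and 11.70, 12.09 and 11.69 at P1 in control ventricles. The arrays of the 2 ages did not overlap in either genotype, and the falls were 1.70-fold in KO (adjusted p = 2.36e-08) and 1.72-fold in control (adjusted p = 1.62e-08). A further 4 subunits moved the same way. Cct6a (zeta) fell 1.65-fold in KO and 1.41-fold in control, Cct8 (theta) 1.29-fold and 1.44-fold, Cct3 (gamma) 1.39-fold and 1.42-fold, and Cct4 (delta) 1.39-fold and 1.41-fold, with adjusted p values of at most 0.00341. In control ventricles the fall of Tcp1, Cct3, Cct6a and Cct8 was already called at P7, and in KO ventricles the P7 arrays of these 4 genes lay below all their P1 arrays. Cct3 averaged 10.35 ± 0.09 at P7 and 10.85 ± 0.13 at P1 in KO, and 10.21 ± 0.15 and 10.86 ± 0.24 in control (SD, n = 3). Cct4 took longer: its P7 arrays overlapped those of P1 in both genotypes.

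Cct5, the epsilon subunit, did not share that course. Its signal lay near the level of the negative controls, which it exceeded on 29 of 30 arrays. The other subunits averaged 10.07 or more in every group. Values near that low level are less able to show a change. It averaged 7.53, 7.46, 7.52, 7.07 and 7.74 from P1 to P60 in KO ventricles and 7.31, 7.47, 7.67, 7.17 and 7.51 in control ventricles. Its mean was lowest at P30 in both genotypes, with KO arrays of 7.05, 7.00 and 7.17 below those of every other age and control arrays of 7.14, 7.24 and 7.14 that overlapped those of P1. In control the P30 level was 1.41-fold lower than that of P14 (adjusted p = 0.000466), and the P60 level 1.26-fold higher than that of P30 (adjusted p = 0.0198). The call of the P60 level was lost with median scaling, with cyclic loess, and without control replicate 1 or 3 of either age. From P1 to P60 its change of 0.21 in KO and 0.20 in control did not pass the test, although median scaling and cyclic loess called the control change higher. Of the 6 subunits none differed between genotypes at any age, with log2 differences of KO over control between -0.17 and 0.23, although median scaling and cyclic loess called Cct5 higher in KO at P1.

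**Figure D3:**
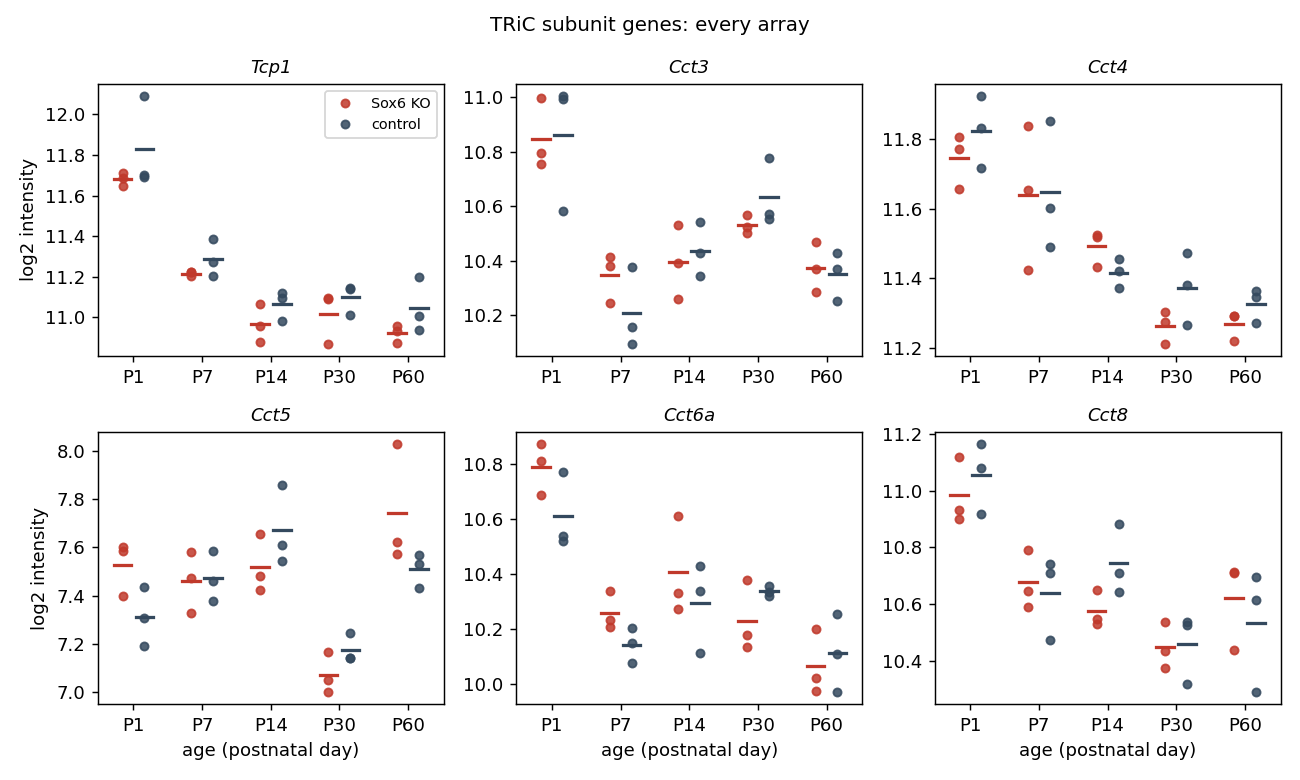
Log2 intensity of the 6 TRiC subunit genes on every array by age, Sox6 KO (red, left) beside control (dark, right), with a bar at the mean of 3 arrays. Tcp1, Cct3, Cct6a and Cct8 step down between P1 and P7, and Cct5 dips at P30.

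The Hsp90 genes held the largest difference between genotypes. Hsp90aa1 encodes the stress-inducible cytosolic Hsp90. On KO arrays it read 9.65, 10.06 and 10.07 at P1, 8.96, 9.07 and 9.26 at P7, 8.80, 8.92 and 8.92 at P14, 8.21, 8.13 and 8.50 at P30, and 8.50, 8.64 and 8.65 at P60. Control arrays gave 8.98, 8.81 and 8.94 at P1, 9.03, 9.23 and 8.63 at P7, 8.65, 8.65 and 8.79 at P14, 8.93, 8.82 and 8.77 at P30, and a mean of 8.95 ± 0.05 at P60 (SD, n = 3). The gene was thus high in newborn KO ventricles and low in them from P30, while control means stayed between 8.70 and 8.97. KO exceeded control by 1.01 at P1 (SE 0.12, 2.02-fold, adjusted p = 1.42e-06) and fell below it by -0.56 at P30 (1.47-fold, adjusted p = 0.00323), with arrays apart at both ages. At P60 the arrays were apart too, yet the difference of -0.35 missed the threshold (adjusted p = 0.0956). Over age the gene fell 2.51-fold from P1 to P60 in KO (adjusted p = 2.22e-10) and changed by 0.04 in control, where it was not called, although median scaling called it lower there. A KO effect that differs between ages was called by the interaction test (adjusted p = 4.85e-06).

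Hsp90b1 is the Hsp90 of the ER, where it folds secreted and membrane proteins. Its KO arrays read 11.59, 11.74 and 11.88 at P1, and its control arrays 11.41, 11.21 and 11.56. KO was 1.27-fold higher there (adjusted p = 0.0439), a call that was lost without control replicate 1 or 2 or KO replicate 2 or 3. The call was also lost with normexp background correction, without a detection filter and with the compared groups alone. At the later ages the genotype means differed by -0.27 to 0.03 and were not called. From P1 to P60 it rose 1.39-fold in control (adjusted p = 0.00133, not called with median scaling), and its change of 0.16 in KO did not pass.

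Among Hsp70 and Hsp110 genes the largest change belonged to Hsph1, an Hsp110 protein that resets Hsp70. From P1 to P60 its KO means were 7.95 ± 0.25, 8.10 ± 0.11, 8.67 ± 0.17, 9.02 ± 0.16 and 9.38 ± 0.06, and its control means 7.66 ± 0.26, 7.97 ± 0.13, 8.35 ± 0.25, 9.23 ± 0.13 and 9.54 ± 0.23 (SD, n = 3). At P60 the KO arrays read 9.34, 9.45 and 9.34, above 7.77, 7.85 and 8.24 at P1, and the control arrays 9.62, 9.28 and 9.71, above 7.93, 7.65 and 7.40. The rise was 2.68-fold in KO (adjusted p = 1.2e-09) and 3.69-fold in control (adjusted p = 5.02e-12). Hspa9, the Hsp70 of the mitochondrial matrix, rose 1.42-fold in KO (adjusted p = 2.5e-06) and 1.57-fold in control (adjusted p = 4.09e-08). Its KO arrays read 13.64, 13.72 and 13.73 at P60 and 13.20, 13.23 and 13.15 at P1, and its control arrays 13.81, 13.91 and 13.83 at P60 and 13.35, 13.11 and 13.15 at P1.

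Of the remaining Hsp70 genes, 3 were not called between P1 and P60. Hspa8, the constitutive cytosolic Hsp70, changed by 0.12 in KO and 0.24 in control, Hspa4, a second Hsp110 protein, by -0.22 and 0.21, and Hspa2, best known from the testis, by -0.20 and 0.05. With median scaling Hspa2 and Hspa4 were called lower in KO. Their course in between was not flat. Hspa2 peaked at P14 in both genotypes and averaged 9.42 ± 0.08 in KO and 9.48 ± 0.31 in control there, and at P30 8.53 ± 0.18 in KO and 8.51 ± 0.07 in control (SD, n = 3). In control that fall was 1.95-fold (adjusted p = 5.51e-07), with no overlap of arrays. Hspa8 read 13.01, 12.92 and 12.74 on KO arrays and 12.44, 12.47 and 12.38 on control arrays at P14. These did not overlap, but the difference of 0.46 missed the threshold (adjusted p = 0.0601). Hspa12b, a distant relative of Hsp70 found mainly in endothelium, was highest at P7 in both genotypes, at 8.94 ± 0.17 in KO and 8.93 ± 0.10 in control (SD, n = 3). It rose 1.19-fold from P1 to P60 in KO (adjusted p = 0.0413), a call lost when any of 5 of the 6 arrays was left out and a value of -0.0019 with median scaling. It changed by -0.22 in control without passing, although median scaling called it lower.

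The mitochondrial chaperonin pair shares a promoter region. In control both means fell to P7, rose to P14, fell to P30 and rose to P60. In KO they moved in the same directions from P7 on, while from P1 to P7 Hspe1 fell and Hspd1 changed by 0.05. Hspe1, the co-chaperonin that caps the cage, read 11.11, 10.75 and 10.96 at P60 and 10.58, 10.48 and 10.71 at P1 in KO ventricles, and 10.91, 10.98 and 11.03 at P60 and 10.39, 10.44 and 10.60 at P1 in control ventricles. It rose 1.28-fold in KO (adjusted p = 0.00847) and 1.41-fold in control (adjusted p = 0.000447). The KO rise was not called without KO P60 replicate 1, and with median scaling its value was -0.02, and the control rise was not called with that scaling. Hspd1, the barrel subunit, rose 1.20-fold in KO (adjusted p = 0.0116), a value of -0.17 with median scaling and not called without KO P1 replicate 2 or KO P60 replicate 2, and changed by -0.11 in control, where it was not called, although median scaling called it lower. In control Hspd1 was lower at P7 than at P1 by 1.30-fold (adjusted p = 0.00192), with arrays at 12.12, 12.19 and 12.13 against 12.49, 12.42 and 12.67. Hspe1 averaged 10.22 at P7 and 10.48 at P1 in control, a fall that was not called.

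J proteins of classes A and B, most of which serve Hsp70 as general partners, rose more often than they fell: 5 of 8 were higher at P60 than at P1 in KO, none was lower and 3 were not called, among them Dnajb6 with a change of -0.03, and 7 of 8 were higher and none lower in control. Among probes with a gene name, 37.7% were higher and 30.1% lower in KO, and 34.4% and 30.6% in control. The median change was 0.56 in KO and 0.77 in control, beside 0.01 and -0.01 over all tested probes. With median scaling 4 rose and 1 fell in KO, where 4 of 8 lay above the median of all probes, and 5 rose and none fell in control. Dnajb2, a J protein that also binds ubiquitin chains, read 9.80, 9.93 and 9.77 at P60 and 8.12, 7.96 and 8.08 at P1 in KO ventricles, and averaged 9.92 ± 0.08 at P60 and 8.34 ± 0.32 at P1 in control ventricles (SD, n = 3). Its rise was 3.43-fold in KO (adjusted p = 2.76e-14) and 2.98-fold in control (adjusted p = 4.47e-13). Dnajb9, a partner of the ER Hsp70 that is induced by the unfolded protein response, read 10.18, 10.46 and 10.38 at P60 and 8.95, 9.30 and 8.91 at P1 in KO, and 10.63, 10.48 and 10.30 at P60 and 9.01, 8.65 and 8.84 at P1 in control. It rose 2.44-fold in KO (adjusted p = 2.6e-11) and 3.11-fold in control (adjusted p = 1.9e-13). The P60 arrays of both genes lay above all their P1 arrays in both genotypes.

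Dnajb4, a cytosolic heat-inducible J protein, rose 1.76-fold in KO (adjusted p = 2.47e-05) and 2.31-fold in control (adjusted p = 6.27e-08). Dnaja3, the J protein that works with Hspa9 in mitochondria, rose 1.93-fold in KO (adjusted p = 8.23e-12) and 1.76-fold in control (adjusted p = 1.92e-10). Dnaja2, a cytosolic class A protein, rose 1.23-fold in KO (adjusted p = 0.0149) and 1.64-fold in control (adjusted p = 1.18e-06), and its KO value turned to -0.03 with median scaling. Without KO P1 replicate 3 or KO P60 replicate 3 the KO call was lost. In control Dnaja2 averaged between 8.31 and 8.57 from P1 to P30 and 9.02 ± 0.07 at P60 (SD, n = 3). Dnajb1, a partner of Hsp70 in the heat shock response that was picked for mention after its values were seen, had the widest SD of any gene and group, 0.70 in control at P60. Its P60 arrays read 9.28, 10.38 and 9.96 in KO and 9.25, 10.58 and 10.28 in control, and no comparison of the genotypes called it.

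Class C J proteins have specialised roles, and they moved in both directions: 7 of 15 were higher and 3 lower at P60 than at P1 in KO, and 9 higher and 3 lower in control, with median scaling giving 6 and 3 in KO and 7 and 4 in control. Among probes with a gene name, 37.7% were higher and 30.1% lower in KO, and 34.4% and 30.6% in control. The share of class C genes called in KO, 66.7%, was thus close to that of named probes. Dnajc28 had the widest change of the family. From P1 to P60 its KO arrays read 7.81, 7.74 and 7.87, then 8.59, 8.52 and 8.53, then 8.89, 9.05 and 8.95, then 9.95, 9.90 and 10.06, then 10.33, 9.99 and 10.14. Its control arrays read 8.32, 8.19 and 8.24, then 8.47, 8.62 and 8.70, then 9.16, 9.04 and 8.96, then 9.95, 9.93 and 9.90, then 10.15, 10.20 and 10.14. Its mean was higher at each age than at the one before in both genotypes, and the rise from P1 to P60 was 5.08-fold in KO (adjusted p = 7.45e-20) and 3.76-fold in control (adjusted p = 7.94e-18).

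Dnajc16, a J protein of the ER membrane, rose 2.77-fold in KO (adjusted p = 1.18e-11) and 1.90-fold in control (adjusted p = 8.77e-08). Its KO arrays read 9.58, 9.47 and 9.47 at P60 and 8.39, 7.83 and 7.89 at P1, and its control arrays 9.14, 9.52 and 9.34 at P60 and 8.21, 8.44 and 8.58 at P1. Dnajc30, a mitochondrial protein, rose 1.25-fold in KO (adjusted p = 0.00423, a value of -0.07 with median scaling) and 1.57-fold in control (adjusted p = 7.52e-07). Dnajc19, which belongs to the protein import motor of the inner mitochondrial membrane, rose 1.74-fold in KO (adjusted p = 2.07e-07) and 1.30-fold in control (adjusted p = 0.00345, not called with median scaling).

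The 3 class C genes that fell were the same in both genotypes. Dnajc7, which contacts both Hsp70 and Hsp90, fell 1.51-fold in KO (adjusted p = 0.00136) and 1.53-fold in control (adjusted p = 0.00114), though 1 KO array at P1, at 9.22, lay among those of P60. Dnajc24, an enzyme cofactor in making the diphthamide residue of elongation factor 2, fell 1.39-fold in KO (adjusted p = 0.000623) and 1.46-fold in control (adjusted p = 0.000166). Dnajc5, the cysteine string protein of secretory vesicles, fell 1.29-fold in KO (adjusted p = 5.51e-05) and 1.38-fold in control (adjusted p = 2.08e-06). At the other end, Dnajc18, also picked after its values were seen, ranged over 0.09 across the ages in control, the least of the 39 genes, against a median range of 0.62, although median scaling called a change from P1 to P60 in both genotypes. All its arrays read between 7.06 and 7.35, near the level of the negative controls, where a change is harder to see. Its narrow range is thus not shown to be a stable level of the gene.

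Taken age by age in control ventricles, 8 genes were higher and 9 lower at P7 than at P1, where 24.6% of all tested probes were called in either direction. From P7 to P14, 9 rose and none fell (19.4% of probes called). From P14 to P30, 12 rose and 6 fell (32.3%), and from P30 to P60, 11 rose and 3 fell (21.1%). These shares are of all tested probes. Probes with a gene name, which were called more often from P1 to P60, were not counted apart for these steps. The 9 falls of the first week included 4 TRiC genes and Hspd1, and the rises included Dnajb9 at 1.68-fold (adjusted p = 4.28e-06), Dnajb4 at 1.48-fold (adjusted p = 0.00508) and Hspa2 at 1.39-fold (adjusted p = 0.00448). Hspe1 was the gene with the largest rise between P7 and P14, at 1.51-fold (adjusted p = 0.000347), while Dnajb2, Dnajc28 and Hsph1 rose most between P14 and P30, at 1.86-fold, 1.83-fold and 1.84-fold with adjusted p values of at most 1.9e-05. Dnaja2, at 1.61-fold (adjusted p = 2.84e-05), led the last step. Counts from P7 to P14 and from P30 to P60 rest on few arrays: 5 genes were called between P7 and P14 without control P7 replicate 1 and 4 without P14 replicate 3, and 8 between P30 and P60 without P30 replicate 1, P30 replicate 3 or P60 replicate 3, and 9 without P60 replicate 2. With median scaling the 4 steps gave 6 higher and 13 lower, 5 and 3, 9 and 8, and 5 and 3. In KO, by quantile normalisation, the 4 steps gave 8 higher and 8 lower, 11 and 2, 10 and 13, and 6 and 1. These KO counts were not set beside the share of all probes, and they do not show a difference in course between genotypes. By mean level, 7, 3, 9, 5 and 15 genes were highest at P1, P7, P14, P30 and P60 in KO, and 8, 4, 2, 8 and 17 in control, and 24 of the 39 peaked at the same age in both.

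Differences between genotypes were fewer than differences between ages. Of 195 values, 39 genes at 5 ages, 14 were called, in 13 genes, and Hsp90aa1 was the only gene called at more than 1 age. At P1, 3 genes were higher and 6 lower in KO, against 8.82% and 7.91% of all tested probes and 10.7% and 12.2% of those with a gene name. The share of the 39 genes called there, 23.1%, was thus close to that of named probes. Under cyclic loess the split was 7 higher and 6 lower, with normexp background correction 1 and 5, and under median scaling 4 and 7. Beside Hsp90aa1 and Hsp90b1, Dnajc30 was higher, at 9.78, 9.80 and 9.90 in KO against 9.74, 9.42 and 9.45 in control (1.22-fold, adjusted p = 0.0308). Dnajc28 was lower, at 7.81, 7.74 and 7.87 against 8.32, 8.19 and 8.24 (1.36-fold, adjusted p = 0.000167). Hspd1 read 12.35, 12.08 and 12.20 in KO and 12.49, 12.42 and 12.67 in control (1.25-fold lower, adjusted p = 0.0122), and Dnajc19 averaged 12.07 ± 0.11 in KO and 12.41 ± 0.19 in control (SD, n = 3, 1.27-fold lower, adjusted p = 0.0225). Hspa12b read 8.20, 8.12 and 8.21 in KO and 8.48, 8.56 and 8.55 in control (1.28-fold lower, adjusted p = 0.0197). In these 5 genes the arrays of the genotypes did not overlap. Dnajc16 (1.29-fold lower, adjusted p = 0.0246) and Dnajc11, a protein of the mitochondrial membranes (1.17-fold lower, adjusted p = 0.0485), had overlapping arrays. The P1 arrays of Dnajc11 read 7.20 to 7.64, near the level of the negative controls. The count at P1 rests on few arrays as well: it was 2 without KO replicate 2, 4 without KO replicate 3, 4 without control replicate 2 and 5 without control replicate 3, and 13 without control replicate 1. Hsp90aa1 and Dnajc28 were called in every one of these fits. Dnajc30, Dnajc16 and Dnajc19 were not called without control replicate 2 or 3 or KO replicate 2 or 3, Hspa12b without control replicate 2 or 3 or KO replicate 2, Hspd1 without control replicate 3 or KO replicate 2, and Dnajc11 without control replicate 1 or 2 or KO replicate 2 or 3. Fits of the compared groups alone lost Dnajc30, Dnajc16, Dnajc19, Hspd1 and Dnajc11. Dnajc30, Dnajc16 and Dnajc11 were lost without a detection filter, Dnajc30 and Dnajc19 with normexp, Dnajc30 with median scaling and Hspd1 with cyclic loess. Dnajc11 was also lost with detection on all 30 arrays, with trend and robust moderation, and with the authors' normalised table.

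Markers of other kinds moved with genotype at P1, and their part in these differences was not tested. The summed intensity of 6 cardiomyocyte markers was 93380.4 to 100309 on KO arrays and 102674 to 119962 on control arrays, with 2 of 6 lower (Myh6 by -0.63 and Tnni3 by -0.45). The sum of 4 endothelial markers was 2692 to 3046 in KO and 3286 to 3358 in control, with Cldn5 lower by -0.83 (adjusted p = 0.000376), and Hspa12b moved the same way. Of 5 fibroblast markers 2 were lower, the sum being 8675 to 11374 in KO and 11091 to 13587 in control. The sum of 2 atrial markers, Myl4 and Nppa, was 77731 to 82135 in KO and 30039.9 to 74795 in control, without either passing the test. The sum of 3 macrophage markers was 670.5 to 859 in KO and 633 to 666 in control, with 1 of 3 higher. Among the clock output genes, Per1 and Per2 were higher in KO, by 1.27 and 0.90, and Dbp lower by -0.71.

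At later ages the list of genes was short. At P7, Dnajb9 was lower, at 9.25, 9.20 and 9.15 in KO against 9.65, 9.53 and 9.56 in control (1.31-fold, adjusted p = 0.0242), and Dnaja3 higher, at 11.26 ± 0.07 in KO against 11.01 ± 0.08 in control (SD, n = 3, arrays apart, 1.20-fold, adjusted p = 0.033). These 2 genes stand against 3.02% of all probes higher and 2.38% lower. Neither was called without control replicate 1, KO replicate 1 or KO replicate 2, and without control replicate 3 only Dnaja3 was. Dnajb9 was also lost without KO replicate 3 and with median scaling, and Dnaja3 without control replicate 2. At this age the endothelial markers summed to 3679 to 4481 in KO and 5409.6 to 5661 in control, and both atrial markers were higher in KO. Sums of 5 fibroblast markers (17610 to 18672 in KO, 19786 to 26041 in control, 2 of 5 lower), 3 macrophage markers (687 to 736 in KO, 832 to 1034 in control, 1 of 3 lower) and 8 immediate early genes, which respond within minutes to stimuli (6985 to 7882 in KO, 10704 to 13342 in control, 2 of 8 lower), did not overlap either. The part of these lists was not tested. At P14 limma called none of the 39 (1.47% of probes higher, 1.13% lower), although 7 had an unadjusted p under 0.05, as did 13.4% of all probes, and 1 was called without KO replicate 3. The immediate early genes summed to 9307 to 12295 in KO and 15658 to 19299 in control at that age, with 2 of 8 lower. At P30 Hsp90aa1 and Hspe1 were lower in KO, against 3.69% of probes lower and 3.16% higher. Hspe1 averaged 10.22 ± 0.29 in KO and 10.71 ± 0.04 in control with arrays apart (SD, n = 3, 1.40-fold, adjusted p = 0.00614, not called without KO replicate 2). At P60 Dnajc10, an ER reductase that unlinks disulfides for degradation, was the single gene called (2.13% of probes higher, 2.39% lower). It read 9.85, 9.57 and 9.54 in KO and 10.31, 10.32 and 10.25 in control, 1.56-fold lower (adjusted p = 0.00655), and its KO mean at P30, 9.46 ± 0.23, also lay below that of control, 9.81 ± 0.11 (SD, n = 3), without being called.

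Other marker lists also differed at P30, and again their part was not tested. Endothelial markers summed to 1697 to 1979.9 in KO and 2064 to 2546 in control, 3 macrophage markers to 2466 to 2651 in KO and 3461 to 4512 in control, 5 fibroblast markers to 18162 to 19617 in KO and 20853 to 22856 in control, and 2 blood markers to 19486 to 26994 in KO and 29074 to 48941 in control. Of these lists 1 of 4, 1 of 3, 2 of 5 and 1 of 2 genes were lower by the test, and 1 of the 2 atrial markers was higher in KO. The 6 cardiomyocyte markers overlapped, at 127183 to 132548 in KO and 124936 to 134376 in control. Clock output genes were higher in KO at P30, 4 of 6, with a sum of 5449.6 to 7185 against 2799.7 to 4168 in control, and at P60 2 of 6 were lower in KO, with 4425 to 5963 against 6499 to 7112. The time of day of tissue collection is not given in the sources used here.

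**Figure D4:**
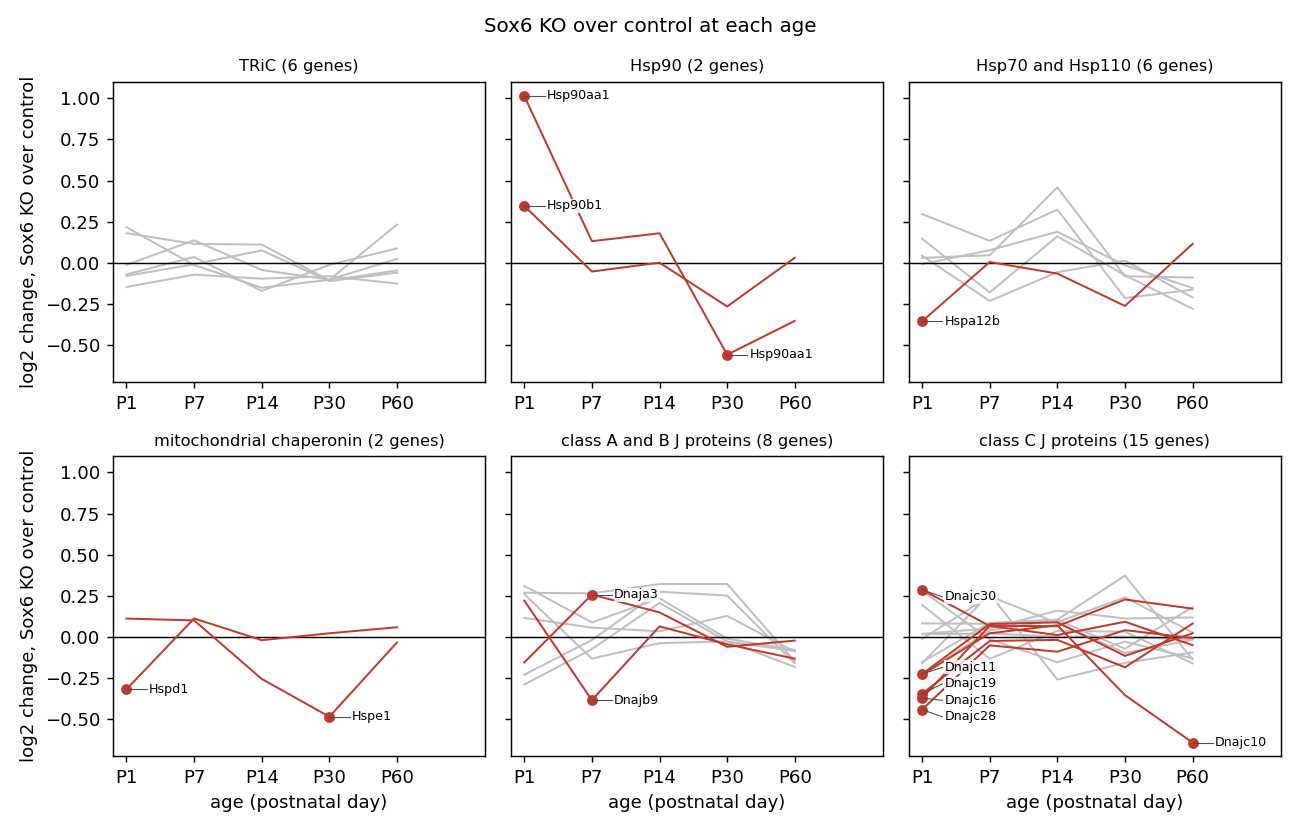
Log2 change of Sox6 KO over control at each age (limma) for the genes of each family, with red lines for the 13 genes called at 1 or more ages and points where the adjusted p was under 0.05. Calls were most numerous at P1, with 9 genes (23.1%), where 10.7% of probes with a gene name were higher and 12.2% lower. None was made in TRiC, or at P14, where 1.47% of all tested probes were higher and 1.13% lower.

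**Figure D5:**
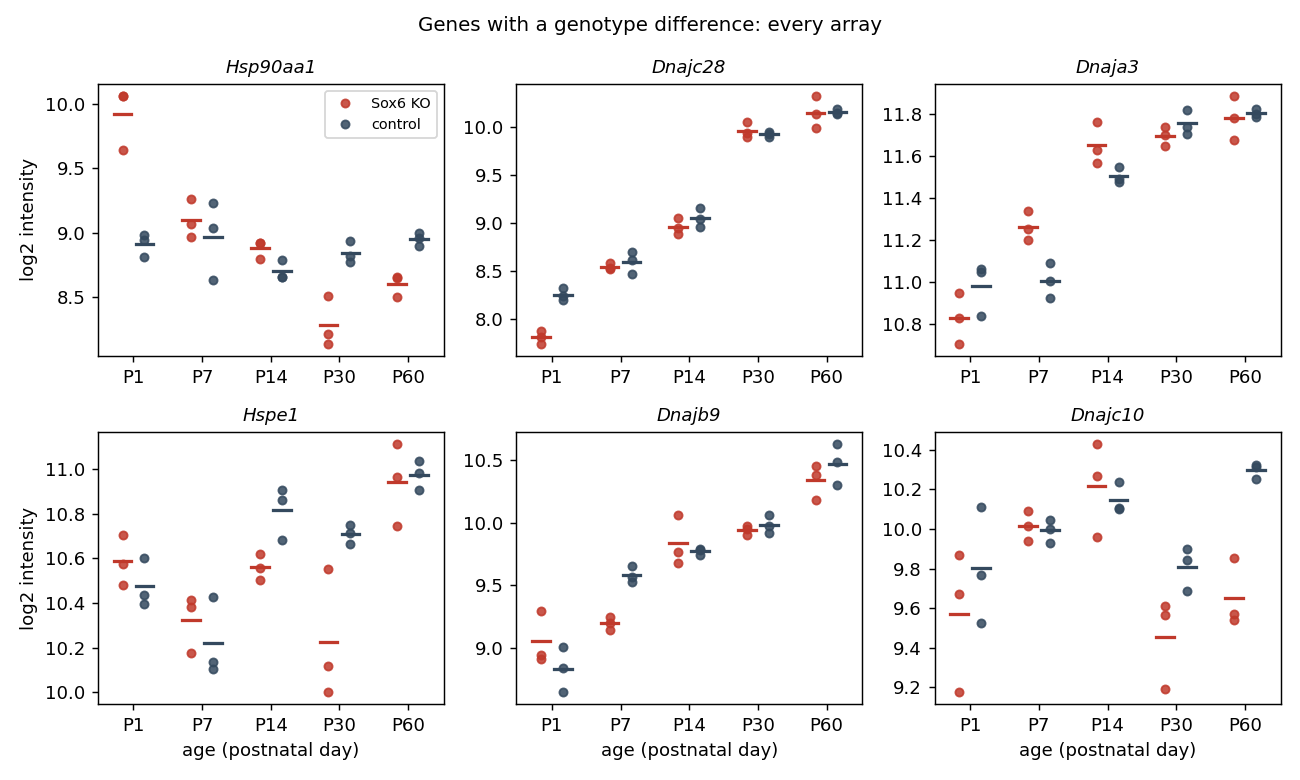
Log2 intensity on every array by age for Hsp90aa1, Dnajc28, Dnaja3, Hspe1, Dnajb9 and Dnajc10, Sox6 KO (red, left) beside control (dark, right), with a bar at the mean of 3 arrays. Hsp90aa1 in KO lies above control at P1 and below it at P30, and Dnajc28 differs at P1 alone among the called ages.

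The interaction test asks whether the difference between genotypes varied with age. It called 5 of the 39 genes, against 13.8% of all tested probes and 19.1% of those with a gene name: Hsp90aa1 (adjusted p = 4.85e-06), Dnajc28 (0.0125), Dnaja3 (0.0289), Hspe1 (0.0293) and Dnajb9 (0.0404). Dnajc28 differed by -0.44 at P1 and by -0.09 to 0.04 afterwards. From P1 to P60 Dnaja3 differed by -0.16, 0.26, 0.15, -0.06 and -0.02, and Dnajb9 by 0.22, -0.38, 0.06, -0.05 and -0.13. The count was 10 without control P1 replicate 1, 9 without KO P1 replicate 1, 8 without KO P14 replicate 3, and 3 without control P7 replicate 1, control P7 replicate 2 or KO P7 replicate 1.

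Partners of these chaperones were read from lists of genes with known roles. Of 24 measured cochaperones of Hsp70 and Hsp90 (33 listed), 7 were higher and 3 lower at P60 than at P1 in KO, and 11 higher and 6 lower in control. Among probes with a gene name, 37.7% were higher and 30.1% lower in KO, and 34.4% and 30.6% in control. The same shares stand beside the other lists compared from P1 to P60. Bag3, which joins Hsp70 to selective autophagy of sarcomere proteins, rose by 1.64 in KO and 1.67 in control on the log2 scale, and Fkbp4, an immunophilin partner of Hsp90, by 1.44 and 1.20. Of 12 measured mitochondrial proteases and import partners (16 listed), 9 were higher and none lower in KO, and 9 higher and 2 lower in control. The proteases Oma1 (1.30 in KO, 1.28 in control), Lonp1 (1.03 and 0.99), Clpx (1.03 and 1.14) and Yme1l1 (0.89 and 0.90) rose in both. Among 12 heat-inducible HSF1 targets (17 listed), of which 7 belong to the 39 genes, 7 were higher and 2 lower in KO, and 6 higher and 1 lower in control. Of the 5 targets outside the 39 genes, 3 were higher and 1 lower in each genotype.

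Prefoldin hands actin and tubulin chains to TRiC. Of 7 measured genes for prefoldin and TRiC cofactors (15 listed), 2 were higher and 3 lower at P60 than at P1 in KO, and 1 higher and 3 lower in control. The tubulin cofactor Tbca fell by 0.62 in KO and by 0.45 in control. Of 12 other ER chaperones and unfolded protein response genes (20 listed), 5 were higher and 1 lower in KO at P1, the age at which Hsp90b1 was higher. Among probes with a gene name, 10.7% were higher and 12.2% lower in KO at that age. Ppib, a prolyl isomerase of the ER, was higher by 0.89 (adjusted p = 0.000294), the stress transcription factor Atf4 by 0.83 (adjusted p = 0.0014), and the disulfide isomerases P4hb and Pdia6 by 0.34 and 0.33. At P30, 1 of the 12 was higher and 3 were lower in KO, against 3.16% and 3.69% of all tested probes.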

How the data were processed

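Ventricular RNA of 30 samples (3 biological replicates in each of 10 groups of genotype and age) was measured on one-colour Illumina MouseWG-6 v2.0 arrays. The authors exported probe intensities with IlluminaExpressionFileCreator, and the deposited table holds them on a linear scale without normalisation. The sources used here do not state the software version or whether background was subtracted. A second deposited intensity table of 6784 probes, filtered and quantile normalised by the authors, served as an alternative.

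Intensities were quantile normalised over the 30 arrays after removal of 974 control rows and taken to log2. A probe was kept if, in any group, its 3 arrays all exceeded the mean plus 2 SD of 936 negative controls, which left 17997. limma 3.58.1 in R 4.3.3 was fitted with 1 mean per group over all arrays, with empirical Bayes variances and Benjamini-Hochberg adjustment over all tested probes. The p values rest on the spread between samples within groups, pooled for each probe over the 10 groups of 3 and moderated over all tested probes. Precision is limited by how many arrays there are. The labels give no separation of replicates beyond calling them biological.

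Gene names came from the platform's probe table, which gives 1 symbol to 6074 probes. Cross-hybridisation between related genes was not tested, and the level of one probe was not set against that of another. Members, lists and tests were chosen with earlier results of these data known. Genes were named by rule: all Hsp90, TRiC, Hspd1, Hspe1 and Hsph1 genes, the 5 Hspa genes of highest signal and any called, the 8 largest rises and falls of J proteins from P1 to P60 in control, up to 8 called genes per genotype comparison, those called by the interaction test, and up to 4 genes per further list. Alternatives were median scaling, cyclic loess, normexp background correction, other detection filters, the compared groups alone, other variance moderation, the authors' normalised table, a stricter threshold, a replicate block and leaving out each array. Scripts were tested on simulated data.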

Additional observations from a re-analysis of the deposited data

Results flagged for a closer look

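The difference between Sox6 KO and control varied with age in 5 of the 39 genes by the interaction test of limma (adjusted over all tested probes), a share below the 13.8% of all tested probes and 19.1% of named probes that it called. Hsp90aa1 (adjusted p = 4.85e-06) was higher in KO by 1.01 on the log2 scale at P1, differed by 0.13 at P7 and 0.18 at P14, and was lower by -0.56 at P30, with -0.35 at P60. Dnajc28 (adjusted p = 0.0125) differed by -0.44 at P1 and by -0.05, -0.09, 0.04 and -0.01 at the later ages. Dnaja3 (adjusted p = 0.0289) was higher in KO by 0.26 at P7, where the differences before and after were -0.16 and 0.15. Hspe1 (adjusted p = 0.0293) was lower in KO by -0.49 at P30, after differences of 0.11, 0.10 and -0.26 at P1, P7 and P14, and differed by -0.03 at P60. Dnajb9 (adjusted p = 0.0404) was lower in KO by -0.38 at P7 and differed by 0.22 at P1.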

How the results depend on the processing

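Counts of called genes moved by more than 1.5 times under these settings. Median scaling left 1 gene for KO over control at P7 and 8 for control P60 over P30, and turned the KO change from P1 to P60 of Dnaja2 (-0.029), Dnajc30 (-0.075), Hspa12b (-0.0019), Hspd1 (-0.17) and Hspe1 (-0.024), none of them called there. Normexp gave 0 genes at P7 and 2 for the interaction, and no detection filter 5 at P1 and 3 for the interaction. Fits of the compared groups alone called 3, 4, 1 and 2 genes at P1, P7, P14 and P60. Detection on all 30 arrays, moderation with trend and robust, and the authors' normalised table each gave 1 gene at P14, and the last 2 of these also 1 at P7. At adjusted p under 0.01 and 1.5-fold the counts were 1 at P1, 0 at P7, 0 at P30, 2 for control P7 over P1, 1 for P14 over P7, 5 for P30 over P14, 2 for P60 over P30, 12 for P60 over P1 in KO, 12 in control, and 1 for the interaction.

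Leaving out 1 array at a time gave 2 to 13 genes for KO over control at P1, 0 to 2 at P7, a range of 0 to 1 at P14, 2 to 3 at P30 and 1 to 1 at P60, 12 to 16 for control P7 over P1, 4 to 8 for P14 over P7, 13 to 18 for P30 over P14, 8 to 12 for P60 over P30, 23 to 26 for P60 over P1 in KO and 25 to 29 in control, and 3 to 10 for the interaction. Where a count moved by more than 1.5 times, the arrays are named beside the result. Of 126 called values of single genes, 74 kept their call in every setting and 52 lost it in at least 1.

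Replicate numbers did not pair the samples: same-numbered KO and control arrays correlated at -0.231 to 0.106 in their deviations from group means, and 5 of 15 correlated best with their own number. With the number as a replicate block, 10, 2, 0, 2 and 1 genes were called for KO over control from P1 to P60, 17, 10, 19 and 16 for the steps between ages in control, 26 for P60 over P1 in KO and 28 in control, and 5 for the interaction. A block for the array chip was not run because the headers name no chip.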
